A study of Mus musculus with 27 samples.

Results

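The adult globins and the genes of red cell maturation were described in 10 genes, 10 of the 30153 genes listed, in cells that had been sorted as Prx1-tdTomato cells without CD45. The 10 genes are Hba-a1 and Hba-a2 (alpha globin), Hbb-bs and Hbb-bt (beta globin), the transcription factors Gata1 and Klf1, the receptors Epor and Tfrc, the heme synthesis enzyme Alas2 and the membrane protein Slc4a1. They were chosen by their high values in these same samples, in P2 above all. Their levels are therefore given as a description, with no test, and the tests quoted are those of other genes. All 10 passed the filter on low values (at least 10 in at least 3 libraries), as did 18442 genes in all.

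Red cells form from blood progenitors in the marrow. Erythropoietin, acting through its receptor, keeps early erythroid cells alive, Gata1 and Klf1 switch on the genes of the lineage, and iron taken up through the transferrin receptor is built into heme for the globins. CD105, one of the proteins used for the sort, is known on early erythroid cells as well as on endothelial and mesenchymal cells, and is lost as erythroid cells mature. Globin, band 3 and the enzyme Alas2 increase late in maturation, when the cell divides for the last times and then loses its nucleus.

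The libraries came from bone marrow, periosteum and muscle of the hindlimb in Prx1-CreER/Ai14/Rag1 mice of 8 to 12 weeks, males and females, 3 days after the last dose of tamoxifen. In these mice a Cre driven by the Prx1 promoter and activated by tamoxifen switches on tdTomato, which stays on in the progeny of the labelled cells, and all groups carry the Rag1 mutation, with which mature lymphocytes do not form. In each tissue, tdTomato cells lacking CD45 were split by 2 surface proteins, with 3 libraries in each of 9 groups. P1 carried CD200 and no CD105, P2 carried neither of them, and P3 carried CD105 with or without CD200. Which animal gave which library was not given, so the tests treat libraries as independent and their p values measure the spread between these libraries. Values are normalized counts, as explained with the processing, and libraries are numbered as replicates 1, 2 and 3 of their group.

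The totals of normalized counts ran from 8631881 to 26230908 per library and the genes above 0 from 12396 to 21675. The sort could be followed in the RNA: Cd200 lay between 21.1 and 72.6 in bone marrow P2 against 6315 to 7515 in bone marrow P1, and Eng, which encodes CD105, between 774 and 1739.5 in bone marrow P3 against 13.1 to 173 in bone marrow P2. The 8 mesenchymal markers summed to 4561881 to 8808971 in bone marrow P1, 48587 to 170498 in bone marrow P3 and 2764 to 8509.5 in bone marrow P2, while periosteum P2 had 36822 to 100421. Prrx1 itself, the gene whose promoter drives the label, was between 69.0 and 170.3 in bone marrow P2 and between 1674.5 and 2413 in bone marrow P1. The row listed for transgenes was lowest in bone marrow P2 (1181 to 1296) and was 9235 to 13598 in periosteum P2. In bulk libraries a larger number of erythroid cells and more erythroid RNA per cell cannot be told apart.

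The promoters of the globin genes and of Alas2 are shown because these 5 genes had the highest mean levels per length of the 10 in bone marrow P2. They are the 250 bases before the start of each gene in RefSeq (GRCm38.p6), written 5′ to 3′ on the strand of the gene, with 3 motifs in capitals on either strand: CACCC, the core of the site that Klf1 binds, GATAA, the core of the site that Gata1 binds, and CCAAT.
Hba-a1, chr11:32283422-32283671, plus strand: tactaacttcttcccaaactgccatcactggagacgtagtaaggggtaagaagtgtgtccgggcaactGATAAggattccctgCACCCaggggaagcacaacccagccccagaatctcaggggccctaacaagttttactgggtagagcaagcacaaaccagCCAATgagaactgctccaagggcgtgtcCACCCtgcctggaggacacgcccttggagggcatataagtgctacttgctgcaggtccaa
Hbb-bs, chr7:103827929-103828178, minus strand: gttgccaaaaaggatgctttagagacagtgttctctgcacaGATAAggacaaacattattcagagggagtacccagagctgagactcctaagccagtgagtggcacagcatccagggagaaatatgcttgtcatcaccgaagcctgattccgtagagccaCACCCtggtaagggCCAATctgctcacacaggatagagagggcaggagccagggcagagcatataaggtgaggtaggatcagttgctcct
Hbb-bt, chr7:103813924-103814173, minus strand: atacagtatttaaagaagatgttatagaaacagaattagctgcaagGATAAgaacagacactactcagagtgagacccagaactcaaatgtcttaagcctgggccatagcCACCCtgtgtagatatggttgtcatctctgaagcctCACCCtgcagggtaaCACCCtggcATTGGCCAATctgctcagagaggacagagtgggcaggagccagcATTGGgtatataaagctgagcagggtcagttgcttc
Alas2, chrX:150547167-150547416, plus strand: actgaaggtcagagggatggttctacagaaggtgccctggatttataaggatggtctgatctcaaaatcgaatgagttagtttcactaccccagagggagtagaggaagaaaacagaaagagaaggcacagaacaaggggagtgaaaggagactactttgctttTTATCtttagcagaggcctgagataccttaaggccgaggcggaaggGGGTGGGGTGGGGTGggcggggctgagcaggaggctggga

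The window of Hbb-bs held 1 CACCC match and that of Hbb-bt held 3, and each held 1 GATAA match. Hbb-bt had 3 CCAAT matches and Hbb-bs 1. The windows of Hba-a1 and Hba-a2 share an unbroken run of 247 of the 250 bases, so only the first is printed, and the longest run shared by Hbb-bs and Hbb-bt is 14 bases. Alas2 held 3 CACCC matches and 1 GATAA match, and no CCAAT. No match overlapped another in any of these windows. Of all 32851 promoter windows of this length, 52% held a CACCC match, 22.6% a GATAA match and 33.8% a CCAAT match, and 3.45% held all 3 motifs, as did Hba-a1, Hba-a2, Hbb-bs, Hbb-bt and Klf1. RefSeq windows were found for 9 of the 10 genes, without Slc4a1. A match of this kind is a string of letters and does not show binding.

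The alpha globin pair lies on chromosome 11, Hba-a1 at 32283511-32284465 and Hba-a2 at 32296489-32297298, and the beta globin pair on chromosome 7, Hbb-bt at 103812524-103813996 and Hbb-bs at 103826534-103828096 (GENCODE M21, GRCm38). The 4 globins made up 44.2%, 47.3% and 44.4% of all normalized counts in the 3 libraries of bone marrow P2 and 24.1%, 38.6% and 32.1% in those of periosteum P2. They took 2.99% to 4.28% in bone marrow P3, 1.45% to 2.07% in periosteum P3 and 0.899% to 1.56% in muscle P2. The lowest shares were those of muscle P1, between 0.0251% and 0.102%. In no tissue did the libraries of P2 overlap those of P1 or P3. When values were divided by gene length the mean share was 73.7% in bone marrow P2 and 60.7% in periosteum P2 and 11.6% in bone marrow P3, with the 9 groups in the same order.

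**Figure D1:**
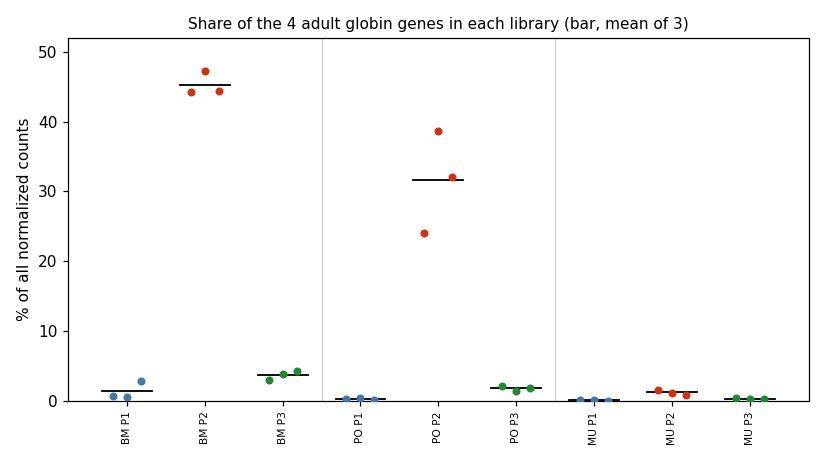
Share of the 4 adult globin genes in all normalized counts of each library, in percent, for bone marrow (BM), periosteum (PO) and muscle (MU). Points are the 3 libraries of a group and bars their mean: the P2 libraries of bone marrow sit between 44.2% and 47.3% and those of periosteum between 24.1% and 38.6%, above every P1 and P3 library.

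Hba-a1, the first alpha globin gene, was at 1741933, 2724738 and 1647645 in bone marrow P2, at 70779, 105551 and 125663 in bone marrow P3 and at 26794, 25891 and 99675 in bone marrow P1. In periosteum it was at 722221, 1842617 and 1283226 in P2, at 55420.3, 51560.4 and 62408 in P3 and at 8492, 10356 and 2723 in P1. In muscle it was at 58947, 48572 and 38791 in P2, 10092, 6888 and 6078 in P3 and 2768, 1844 and 702 in P1. The order P2, P3, P1 thus held in all 3 tissues, and in bone marrow replicate 3 of P1 lay within the range of P3. The mean of P2 was 20.2 times that of P3 in bone marrow and 22.7 times in periosteum. The log2 difference of 4.34 in bone marrow went to -0.004 after quantile normalization, which gives every library the same highest values and so cannot show differences among the topmost genes.

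Hbb-bs, the beta globin with the higher level of its pair, was at 2818895, 4163507 and 2647659 in bone marrow P2 and at 76515, 107572 and 124176 in bone marrow P3. It was at 922600.0, 2538708 and 1688811 in periosteum P2 and at 48066, 38643 and 45340.3 in periosteum P3. In muscle P2 it was at 79209, 64801 and 43955, and in muscle P1 at 3062, 2599.8 and 822. All bone marrow P2 libraries were above all periosteum P2 libraries, which was so for Hbb-bs and Alas2 and for none of the other 8 genes. The log2 difference between these groups was 0.99 for Hbb-bs and 1.16 for Alas2, where the median of all genes was 1.13. The share of all genes that separated in this way was not counted. The P2 mean of Hbb-bs was 31.2 times the P3 mean in bone marrow and 39.0 times in periosteum. Bone marrow P1, with 42231, 39243 and 157259.6, overlapped both bone marrow P3 and muscle P2.

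By their means Hba-a2 and Hbb-bt followed the same order of P2, P3 and P1 in each tissue. In bone marrow P1, replicate 3 was above all P3 libraries for Hba-a2, as it was for Hbb-bs. Hba-a2 ran from 2704515 to 4149695 in bone marrow P2, from 1190560.0 to 3612411 in periosteum P2 and from 63109.7 to 111889.7 in muscle P2. Hbb-bt ran from 843744 to 1373652, from 529595 to 1284387 and from 21182 to 32534 in the same groups. Over the 27 libraries the 4 globins had Pearson's r of 0.993 to 0.998 with each other on the log2(normalized count + 1) scale, which describes libraries that share group and depth. The genes of each pair are near copies of each other, so how reads were divided within a pair is uncertain, and the sum of a pair is surer than either gene.

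Within the pairs the division was not the same in all groups. Hba-a1 took 38.7%, 39.6% and 37.9% of alpha globin counts in bone marrow P2 and 48.6%, 48.1% and 48.6% in bone marrow P3. In periosteum it took 37.8%, 33.8% and 36.4% in P2 and 44.1%, 46.4% and 53.3% in P3. The P3 libraries of these 2 tissues were above all other libraries, and muscle P3, at 38.1% to 38.6%, was not. Hbb-bt took 24.6%, 24.8% and 24.2% of beta globin counts in bone marrow P2 and 31.8%, 31.8% and 32.2% in bone marrow P3. In periosteum Hbb-bt took 36.5%, 33.6% and 33.5% in P2 and 40.9%, 37.7% and 40.2% in P3. Its share was thus higher in P3 than in P2 within each of these tissues, higher in periosteum than in bone marrow within P2 and within P3, and without overlap in all 4 cases. These differences were noticed in the data and not tested, and 3 libraries against 3 cannot give an exact p below 0.1.

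**Figure D2:**
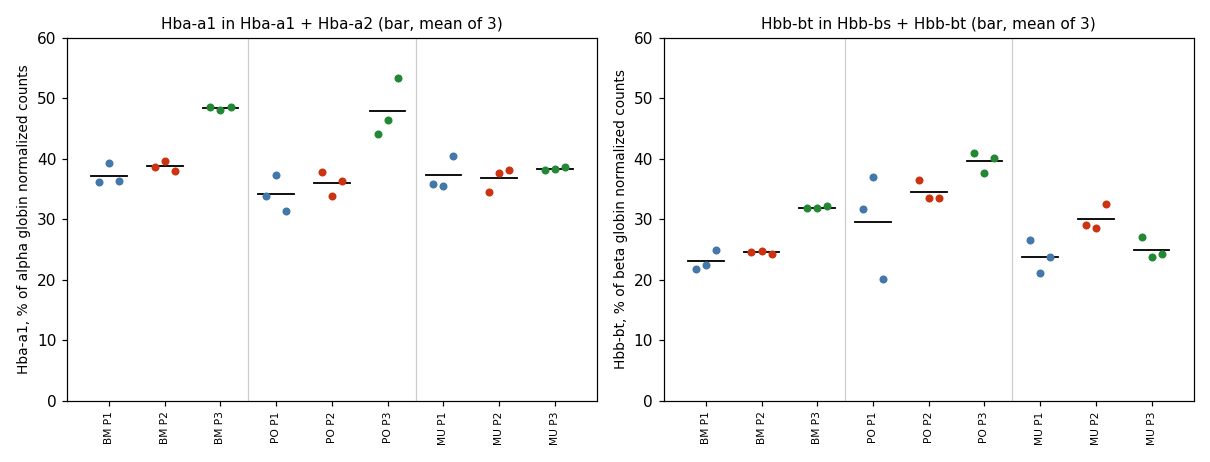
Left, Hba-a1 in percent of the normalized counts of Hba-a1 and Hba-a2, and right, Hbb-bt in percent of those of Hbb-bs and Hbb-bt, for each library of bone marrow (BM), periosteum (PO) and muscle (MU), with bars at the mean of 3. In P3 of bone marrow and periosteum Hba-a1 lies between 44.1% and 53.3%, above the other groups, and the mean of Hbb-bt is 24.5% in bone marrow P2 and 39.6% in periosteum P3.

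The ratio of alpha to beta globin, the sum of the 2 alpha genes over the sum of the 2 beta genes, was 1.2, 1.24 and 1.25 in bone marrow P2 and 1.32, 1.43 and 1.39 in periosteum P2. The difference of the mean log2 ratios was -0.163 (bone marrow 0.299 ± 0.0277, periosteum 0.462 ± 0.0588, SD, n = 3 each) on the log2 scale. It is given as a description, since 3 libraries against 3 cannot reach a small exact p. The ratio was lower in 3 of 3 bone marrow libraries than in any periosteum library. With Hba-a1 and Hbb-bs alone the difference was -0.26, so its size rests partly on how reads were divided within the pairs. Other groups had mean ratios from 1.33 in bone marrow P1 to 1.75 in muscle P3.

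Alas2 on chromosome X (150547375-150570638), the erythroid form of the first enzyme of heme synthesis, kept step with the globins. It was at 85157, 131136 and 79395 in bone marrow P2, 22699.5, 77296 and 45101 in periosteum P2 and 3322, 2566 and 2639 in muscle P2. In P3 it was at 3614, 4137 and 6384 in bone marrow and 1500.3, 1090.0 and 1855 in periosteum. The P2 mean was 20.9 times that of P3 in bone marrow and 32.6 times in periosteum, with no overlap. The 4 globins summed to 94.6 to 98.8 times the Alas2 value in bone marrow P2 and 69.2 to 91.2 times in bone marrow P3. In periosteum the ratio was 120.0 to 148 in P2 and 104 to 159 in P3, so that P2 and P3 did not separate there.

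Slc4a1 on chromosome 11 (102348824-102366203) encodes band 3, the anion exchanger of the red cell membrane. It was at 113673, 188988 and 90932 in bone marrow P2 and 12047, 14894 and 24577 in bone marrow P3, and at 37159, 114948 and 61084 in periosteum P2 and 3304, 3748 and 6361 in periosteum P3. In muscle P2 it was at 3138, 2763 and 3343 and in muscle P1 at 21.1, 35.0 and 22.2. P2 was above P3 in every library of each tissue, by 7.64 times in bone marrow and 15.9 times in periosteum as ratios of means. Per Slc4a1, the 4 globins summed to 65.7 to 86.3 in bone marrow P2 against 18 to 25.3 in bone marrow P3.

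Gata1 and Klf1, the transcription factors of the lineage, gave another picture. Gata1 (chromosome X, 7959260-7978071) was at 5344, 6559.8 and 3734 in bone marrow P2 and at 2022, 4290.3 and 4644 in bone marrow P3, which overlapped. Klf1 (chromosome 8, 84901928-84905291) was at 12506, 10178 and 4844 in bone marrow P2 and at 3065, 7831 and 8827 in bone marrow P3, which also overlapped. The P2 mean was 1.43 times that of P3 for Gata1 and 1.40 times for Klf1, where it was 20.2 to 31.2 times for the globins. The log2 difference was 0.57 ± 1.56 (SE) for Gata1 and 0.51 ± 1.66 for Klf1, wide beside the SE of 0.47 to 0.56 of the globins. That of Klf1 went to -0.018 after quantile normalization. In bone marrow P1 Gata1 was at 119.9, 29.4 and 199 and Klf1 at 65.9, 147 and 644, below every library of P2 and P3. The globin sum per Klf1 was 658, 1220 and 1620 in bone marrow P2 and 48.2 to 84.1 in bone marrow P3.

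In periosteum single libraries stood apart in these genes. Gata1 was at 1530.0, 7311 and 2397 in P2 and at 1841, 0.81 and 899 in P3. Klf1 was at 16.9, 5814 and 1363 in P2 and at 2022, 2430.1 and 1628 in P3. Replicate 2 of P3 was thus near 0 in Gata1 and not in Klf1, and replicate 1 of P2 was low in Klf1 while its globins took 24.1% of the counts. The log2 difference of P2 from P3 was 4.38 for Gata1, and 1.22 without replicate 2 of P3. For Klf1 it was -1.94, and 0.49 without replicate 1 of P2, so its direction rests on that library. With all libraries the Klf1 mean of periosteum P2 was 1.18 times that of P3, so the direction also depends on the measure. In muscle Gata1 was at 73.4, 160.4 and 79.9 in P2 and Klf1 at 0.726, 286 and 86.3, and in P1 of muscle no library passed 1.13 for Gata1 or 14.8 for Klf1.

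Epor on chromosome 9 (21958897-21963506), the erythropoietin receptor, was at 5334, 7095 and 3696 in bone marrow P2 and 1256, 2456 and 3147 in bone marrow P3, with no overlap and means 2.35 times apart. It was at 1778, 3781 and 2156 in periosteum P2 and 460.4, 1.76 and 673 in periosteum P3, where replicate 2 was again the low one. The log2 difference in periosteum was 4.68, and 2.13 without that library. Epor went most closely with Gata1 among the 10 genes, with a Pearson's r of 0.955 over the 27 libraries, against 0.845 to 0.873 with the globins.

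Tfrc on chromosome 16 (32608920-32632794), the transferrin receptor through which cells take up iron, was at 19730.3, 21764 and 13092 in bone marrow P2 and 4326, 6915 and 8583 in bone marrow P3. It was at 6982, 18873 and 21738 in periosteum P2 and 1289, 575 and 1706 in periosteum P3. P2 was above P3 in both tissues without overlap, by 2.75 and 13.3 times as ratios of means. Dividing cells of most kinds carry this receptor, and it was the gene of the 10 with the least contrast between P2 and P1 of muscle. It was at 326, 711 and 497 in P2 against 403, 281 and 619.9 in P1. This log2 difference of 0.24 turned to -0.40 when libraries were set to the same total without globins. Against muscle P3 the P2 mean was 3.52 times as high, where it was 1.38 times for Epor.

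**Figure D3:**
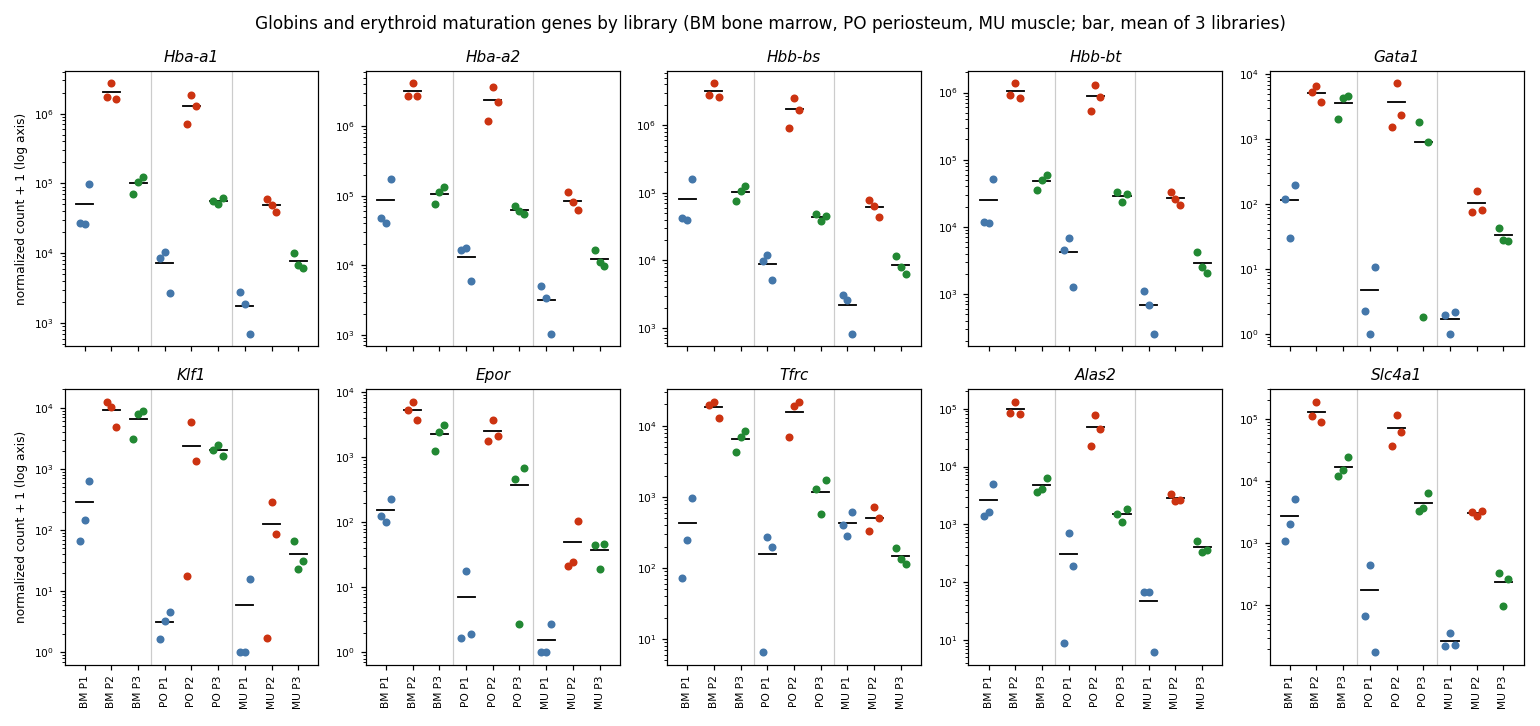
Normalized count + 1 on a log axis for each of the 10 genes in the 27 libraries of bone marrow (BM), periosteum (PO) and muscle (MU); colours mark P1, P2 and P3 and bars the mean of 3 libraries. The globins and Alas2 are about as high in bone marrow P3 as in bone marrow P1 replicate 3, and Hba-a2 and Hbb-bs of that P1 library lie above all of bone marrow P3. Gata1 and Klf1 of bone marrow P3 overlap those of bone marrow P2. The values for periosteum P3 replicate 2 (Gata1 0.81, Epor 1.76) and periosteum P2 replicate 1 (Klf1 16.9) stand apart.

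Levels between genes can be compared only per length. Per kilobase of exon, the mean of bone marrow P2 was 4802383 for Hba-a2, 4179714 for Hbb-bs, 2509982 for Hba-a1 and 1486678 for Hbb-bt, then 41017 for Alas2, 26824 for Slc4a1, 5997 for Klf1, 2942 for Tfrc, 2702.5 for Epor and 2138 for Gata1. The other 6 genes together took 1.11% to 1.39% of the counts of bone marrow P2, 0.502% to 0.948% of those of periosteum P2 and 0.305% to 0.545% of those of bone marrow P3. Bone marrow P2 had the highest mean of the 9 groups for each of the 10 genes, but after quantile normalization its log2 difference from periosteum P2 was -0.27 for Hba-a2 and 0 for Hba-a1 and Hbb-bt. For Tfrc and Hbb-bt the highest mean rested on replicate 1 of periosteum P2, the lowest library of its group. The libraries of bone marrow P2 overlapped those of the next group, periosteum P2 (bone marrow P3 for Klf1), for all but Hbb-bs and Alas2. The share of all genes without such overlap was not counted.

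**Figure D4:**
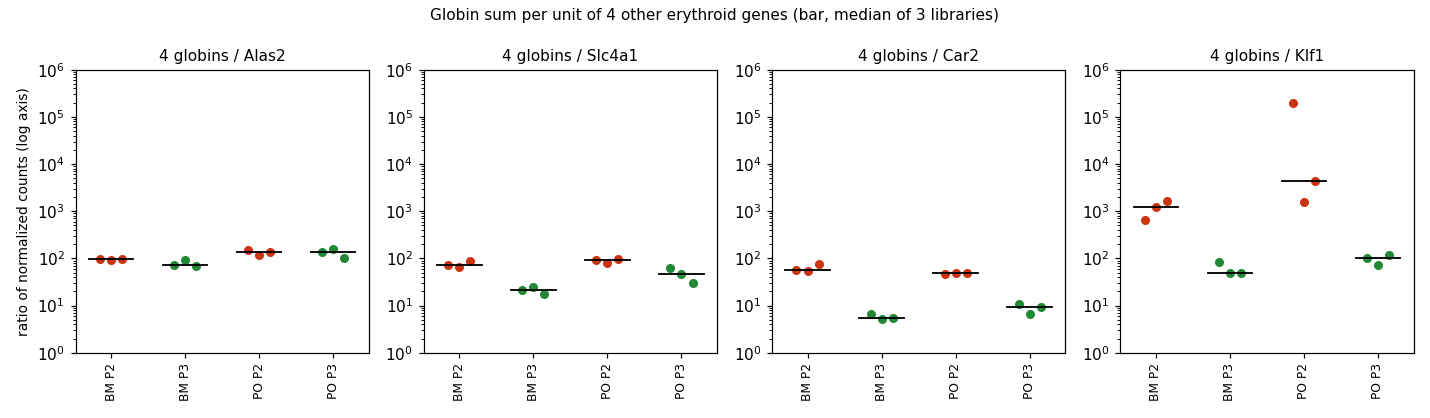
Sum of the 4 globins divided by the value of Alas2, Slc4a1, Car2 or Klf1 in the same library (ratio on a log axis), for P2 and P3 of bone marrow (BM) and periosteum (PO), with bars at the median of 3 libraries. The ratio to Alas2 stays between 69.2 and 159 in all 4 groups, and the ratio to Klf1 is 658 or more in every P2 library and 119 or less in every P3 library, the highest point being periosteum P2 replicate 1, whose Klf1 was 16.9.

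Beyond the 10, a list of 61 other erythroid genes was followed, of which 60 were tested with limma on log2(normalized count + 1). It holds transcription factors and cofactors (12), heme synthesis and transport (14), the red cell membrane and its skeleton (18) and enzymes and factors of terminal maturation (17, with Ahsp not analysed here). Trim10, a tripartite motif protein and not a transcription factor, was counted among the transcription factors and cofactors. A call needed an adjusted p under 0.05 together with a log2 fold change of more than 1.5 in either direction. Against P1 of bone marrow, 52 of the 60 were called higher in P2 and 0 lower, where 23.7% of all genes were called higher and 10.4% lower. The median of the list was 5.05 and that of all genes 0.61. In periosteum P2 against P1, 50 were called higher and 0 lower (8.96% and 10.1% of all genes), with a median of 5.82 for the list and 0.0 for all genes. The same comparison in muscle called 22 higher and 0 lower (4.62% and 3.59%), with medians of 1.61 and -0.24. All 8 myofibril genes, markers of muscle fibres, were also called higher there, and their sum was 1975889 to 2727452 in muscle P2 against 23694 to 43940 in muscle P1. The part of this difference in the erythroid values was not tested. Kel, Cldn13 and Trim10, chosen here after their values were seen, had log2 fold changes of 7.65, 7.11 and 6.97 in muscle. The red cell membrane list had the most called in muscle, 10 of 18, and heme synthesis the fewest, 3 of 14.

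P3 carried part of the same list. In bone marrow P3 against P1, 33 of 60 were called higher and 0 lower, where 3.14% of all genes were called higher and 3.46% lower, and the medians were 2.92 and 0.0. In periosteum P3 against P1 it was 28 higher and 0 lower (2.79% and 1.39%), with medians of 2.74 and 0.0. With only the 2 groups fitted, periosteum P3 against P1 gave 0 calls and periosteum P2 against P1 gave 16. The list of transcription factors and cofactors had 8 of 12 called in bone marrow P3, Trim10 among them, and the terminal maturation list 7 of 16. Without 1 library at a time the count in bone marrow ran from 18, without replicate 2 of P3, to 36. It was 20 without replicate 1 or 2 of P1 and 19 without replicate 3 of P3. Markers of endothelium, which also carries CD105, moved with P3: 7 of 8 endothelial genes were called higher than in P1 in bone marrow and 7 of 8 in periosteum, and their part in these counts was not tested.

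Within the list, P2 and P3 of bone marrow differed in 24 genes called higher in P2 and 0 lower, where 14.6% of all genes were higher and 5.38% lower, with a median of 1.98 for the list and 0.48 for all genes. In periosteum 40 were called higher in P2 and 1 lower (7.79% and 9.33%), with medians of 2.97 and 0.0. Terminal maturation had the largest share called in bone marrow, 10 of 16, and the list of transcription factors and cofactors 3 of 12, Trim10 among them. Of the 60 genes, 51 had a log2 fold change above 0 in both tissues and 5 below 0 in both. The 2 comparisons share no library, and 23 genes were called higher in both, 95.8% of those called in bone marrow and 57.5% of those called in periosteum. Pearson's r between the 2 sets of fold changes was 0.768 across the 60 genes, which are not independent of each other. These figures of agreement were not computed over all genes, so whether they are particular to the list was not tested. Fitted with only their own 2 groups, bone marrow gave 41 calls and periosteum 0, so the periosteum calls rest on the spread shared with the other groups.

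Bpgm, which makes the red cell metabolite that lowers the oxygen affinity of hemoglobin, had the largest change of the list in bone marrow and was chosen after its values were seen. It was at 17781, 22899 and 22143 in bone marrow P2 and at 488, 397 and 589 in bone marrow P3, a log2 fold change of 5.42 ± 0.53 (SE, adjusted p = 3.83e-07), and 4.0 ± 0.53 (adjusted p = 1.37e-05) in periosteum. Mkrn1, a ubiquitin ligase, was 3.09 ± 0.42 higher on the log2 scale in bone marrow (adjusted p = 1.68e-05) and 4.2 ± 0.42 in periosteum (adjusted p = 4.11e-07). Prdx2, an antioxidant enzyme abundant in red cells, was 1.79 ± 0.32 higher in bone marrow (adjusted p = 0.00035), and at 1.48 fell short of the fold threshold without replicate 1 of bone marrow P3. In periosteum Prdx2 was 2.60 ± 0.32 higher (adjusted p = 5.23e-06). Car2, a carbonic anhydrase, was not called in bone marrow (1.30 ± 0.63, adjusted p = 0.143) and was in periosteum (2.44 ± 0.63, adjusted p = 0.00938). The globin sum per Car2 was 53.6 to 74.2 in bone marrow P2 and 5.06 to 6.77 in bone marrow P3.

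Among the enzymes of heme synthesis, Fech, which puts the iron into heme, had a log2 fold change of 2.58 ± 0.55 (adjusted p = 0.00204) in bone marrow and 3.77 (adjusted p = 5.19e-05) in periosteum. Alad was not called in either tissue (1.07 and 1.76). The membrane gene Rhd, for a Rhesus protein, had 2.22 (adjusted p = 0.0295) in bone marrow and 3.35 (adjusted p = 0.00243) in periosteum. Of the factors, Nfe2 had 2.48 (adjusted p = 0.0389) in bone marrow and 4.50 (adjusted p = 0.00076) in periosteum. Trim10, counted in the same list though not itself a transcription factor, had 2.92 (adjusted p = 0.0123) and 4.31 (adjusted p = 0.000656). The bone marrow calls of Nfe2 and Rhd were each lost without any 1 of the 6 libraries compared, at adjusted p values of 0.0643 to 0.128 for Nfe2 and 0.0521 to 0.118 for Rhd. The periosteum calls of P2 against P3 all rest on the spread shared with the other groups, as given above.

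A few genes of the list went the other way. Pklr, the pyruvate kinase of red cells and liver, was the only gene of the list called lower in P2 than in P3, in periosteum, with values of 45.1, 10.3 and 0 in P2 and 602, 54.8 and 118 in P3 (log2 fold change -4.31 ± 1.38, adjusted p = 0.0327). That call was lost without 3 of the libraries left out, replicates 2 and 3 of periosteum P2 and replicate 1 of periosteum P3, at adjusted p values of 0.054 to 0.167. Car1, a carbonic anhydrase known from early erythroid cells, was at 4946, 6389 and 2926 in bone marrow P2 and at 9931, 29523 and 26360 in bone marrow P3, with no overlap and a log2 fold change of -2.13 that was not called (adjusted p = 0.194). Bcl11a, a repressor of embryonic and fetal globin genes, was at 161, 237.5 and 492 in P2 and 482, 1602 and 1471 in P3 of bone marrow, and was not called (-1.97, adjusted p = 0.342). Car1 and Bcl11a were chosen after their values were seen.

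**Figure D5:**
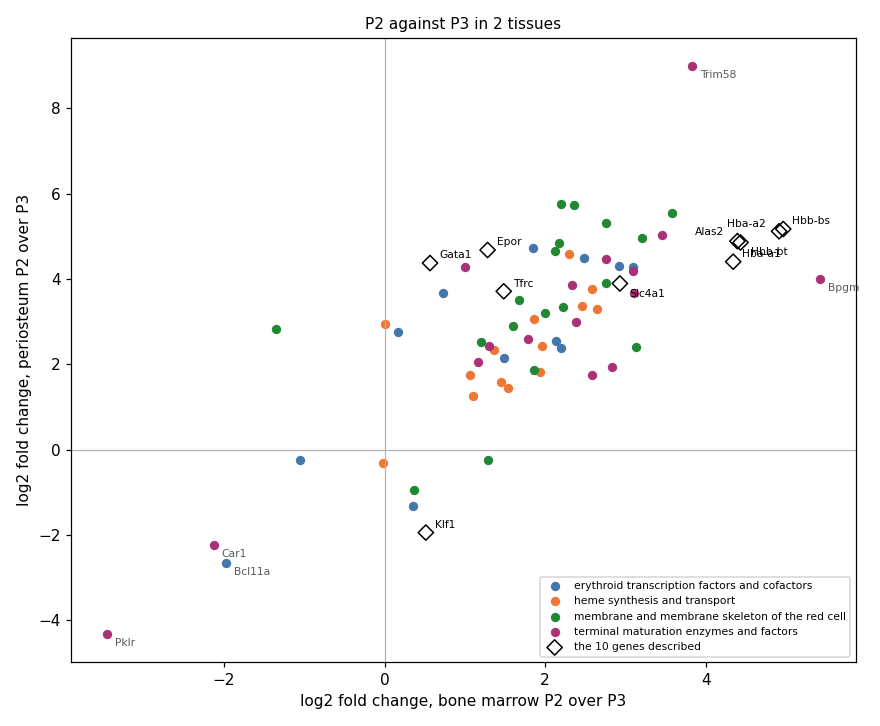
Log2 fold change of P2 over P3 in bone marrow (horizontal) and periosteum (vertical) for the 60 erythroid genes tested, coloured by list, and for the 10 genes described (open diamonds). The globins and Alas2 lie at 4.34 to 4.96 in bone marrow, with Hba-a1 at -0.004 after quantile normalization. Gata1 and Klf1 lie nearer 0 there (0.57 ± 1.56 and 0.51 ± 1.66, SE, with Klf1 at -0.018 after quantile normalization). Pklr, Car1 and Bcl11a are below 0 in both tissues.

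The change from P3 to P2 was compared between tissues with an interaction term. By limma 0 of the 60 genes were called in either direction, where 3.83% of all genes were called higher and 1.34% lower, and the medians were -1.11 for the list and 0.59 for all genes. At an unadjusted p under 0.05 there were 3 of the 60, each with a smaller difference in bone marrow. Such a threshold passes about this number on average without any difference, and the share of all genes was not counted. Of the 60 genes, 14 had a value above 0 and 9 a value above the median of all genes. This shift of the list as a whole was not tested, so the calls do not show that the tissues are alike. The number called was 1 with the libraries set to the same total without globins and with those groups fitted alone. It was also 1 without replicate 1 of muscle P2, of periosteum P1 or of periosteum P2. P2 of bone marrow against P2 of periosteum gave 3 of 60 called higher and 0 lower (15.4% and 4.65% of all genes), with medians of 0.78 and 1.13. The 3 were genes of the membrane: Xk at 4.02 (adjusted p = 0.0262), Aqp1, the water channel, at 2.23 (adjusted p = 0.00372) and Epb41, for protein 4.1 of the skeleton, at 1.66 (adjusted p = 0.0182). The count was 1 without replicate 2 of bone marrow P2, 5 without replicate 2 of periosteum P2 and 0 with the 2 groups fitted alone.

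The medians of all genes depended on the scaling. With the same total without globins, the median moved by 0.64 in bone marrow P2 against P1, 0.80 in bone marrow P3 against P1, -0.27 in bone marrow P2 against P3 and -0.51 in muscle P2 against P1, and with quantile normalization by -0.94 in P2 of bone marrow against periosteum.

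Smaller shares of related lists were called higher in P2 than in P3, and some of their genes were called lower. Of 12 genes of iron uptake and storage, 2 were called higher and 1 lower in bone marrow P2 than in P3, and 3 higher and 0 lower in periosteum. For all genes these shares were 14.6% and 5.38% in bone marrow and 7.79% and 9.33% in periosteum, so 2 of 12 in bone marrow was near the background. Slc25a37, the iron importer of the mitochondrion, was at 30716, 48033 and 25902 in bone marrow P2 and 1827, 3324 and 3196 in P3, and Ncoa4, which guides ferritin to breakdown, was 3.25 ± 0.39 higher on the log2 scale (adjusted p = 3.39e-06). The ferritin genes Fth1 and Ftl1 had log2 fold changes of 0.57 and 0.72 in bone marrow, under the fold threshold. Of 10 genes around erythropoietin signalling, 1 was called higher and 3 lower in bone marrow P2 than in P3, against the same shares of all genes, and 2 higher and 3 lower in periosteum. In bone marrow the first was Bcl2l1, a survival gene, at 4.24 ± 0.65 (adjusted p = 7.21e-05), and the others were the feedback genes Socs3 (-4.10, adjusted p = 3.67e-06) and Socs2 (-2.84, adjusted p = 0.000244) and Podxl (-4.61, adjusted p = 0.0129). In periosteum Bcl2l1 and Pim1 were called higher and Podxl, Stat5a and Cish lower, and Socs3 (-0.60) and Socs2 were not called. Stat5a and Cish were named after their values were seen. Socs3 was at 75.5, 46.8 and 118 in bone marrow P2, 657 to 3903 in bone marrow P3 and 1637 to 3710 in bone marrow P1, whereas periosteum P2 had 2654 to 3898.

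Of the globins other than the 10 genes, Hbq1b, a theta globin, was at 3794, 6606 and 3049.5 in bone marrow P2, 2684, 4858.5 and 3222 in periosteum P2, with 214 to 334 in bone marrow P3. The embryonic genes Hbb-bh1 and Hba-x did not pass 25.7 in any P2 or P3 library of these tissues, and Hbb-y was at 0, 317 and 0 in periosteum P2 and at most 12.5 in bone marrow P2. All 8 proliferation genes were called higher in P2 than in P1 in bone marrow and in periosteum, and 8 and 6 of them in P3 than in P1, where 23.7%, 8.96%, 3.14% and 2.79% of all genes were called higher in these comparisons. Their sum was 68184 to 120967 in bone marrow P2, 32257 to 53132 in bone marrow P3 and 1973 to 4493 in bone marrow P1.

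Other blood cells were present in the same libraries. The 15 leukocyte markers summed to 41229, 230168 and 115942 in bone marrow P2, 39515, 55454 and 12195 in bone marrow P3 and 18490, 38758 and 64936 in bone marrow P1. In periosteum P2 they summed to 6368, 97540 and 864, and Ptprc, the gene of CD45, by which blood cells were sorted out, was at 18.5, 32 and 184.5 there and at 312, 690.2 and 829 in bone marrow P2. The 9 platelet and megakaryocyte markers, a lineage that also uses Gata1, summed to 15092, 18515 and 2238 in bone marrow P2 and 43.5, 5294 and 1316 in periosteum P2. Periosteum P2 replicate 2, with the most of both, also had the highest globins of its group. The globin share was 24.1% and 32.1% in its other 2 libraries. The part of other blood cells in the values was not tested.

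Outside the 10 genes, among those most like Hbb-bs over the 27 libraries, by Pearson's r on the log2 scale, were Dhrs11 (0.971), Slc25a37 (0.961), Mkrn1 (0.951) and Hist1h3d (0.95). The 5 most like Gata1, again outside the 10, were Sgol1 (0.949), Slc14a1 (0.937), Kif23 (0.933), Rhd (0.92) and Hbq1b (0.918). No gene was on both lists.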

How the data were processed

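RNA of sorted cells was amplified with SMART-Seq v4 and made into libraries with Nextera XT. Per the paper's methods, the authors trimmed reads with Trim Galore, aligned them with STAR and normalized with DESeq2. The deposited signal values are these normalized counts, for 30153 genes in 27 libraries; the genome build and counting tool are not given in the sources used here. Low values did not fall on 1 step per library, so reads were not recovered, the depth in reads is unknown and no counting interval is given. A row for transgenes (0.0047% to 0.2131% of the total) was left out of totals and tests.

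Genes at 10 or more in at least 3 libraries were kept (18442). Means of the 9 groups were fitted with limma 3.58.1 (R 4.3.3, trended variance) to log2(normalized count + 1), which understates changes of low genes, and p values were adjusted over the 18442 genes by Benjamini-Hochberg. A planned exact permutation test of the alpha to beta ratio is not quoted, since 3 libraries against 3 cannot give p below 0.1 and its genes were chosen by their values. The fit was tested on simulated data for bone marrow P2 against P1 only, with independent normal noise and 1 spread per gene for all groups. There it made hardly any false calls but recovered only a minority of the changed genes (35 of 200), so a gene that was not called is not shown to be unchanged. Spreads that differ between groups were not simulated, so the rate of false calls in the real data is not known from it. Python 3.11.15 with pandas 2.3.3, numpy 2.4.6 and matplotlib 3.10.9 was used for summaries. Positions came from GENCODE M21, which held 29732 of the gene identifiers, and promoters from RefSeq.

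The members and lists were chosen with earlier results of these data known. Named were the 10 genes, the sort genes, the 4 highest of each list by mean level, the 5 genes most like Hbb-bs and Gata1, and any erythroid gene called against the direction of most. Bpgm, Kel, Cldn13, Xk, Epb41, Car1, Bcl11a, Stat5a, Cish and the embryonic globins were chosen after their values were seen. Some genes that this rule names are not reported here. Alternatives were other pseudocounts (0.1 and 5), no filter, a mean of at least 50, no variance trend, a replicate block, the same total without globins, quantile normalization, groups fitted alone and each library left out.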

Additional observations from a re-analysis of the deposited data

How the results depend on the processing

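Of the counts of erythroid genes called and the alpha to beta difference, 315 values under the alternatives were taken as kept, 7 gave more, 9 fewer and 1 moved. Of the single genes and the globin shares, 524 were taken as kept, 24 moved, 30 lost and 3 gained a call. A count was taken as kept when it stayed within a set ratio of the main count, so it need not be equal. Values without a call were taken as kept when they moved by less than 1 SD. No call of the single genes counted here turned its direction. No call of the erythroid list did so with the same total without globins or with quantile normalization. Under the other alternatives the direction of the list's calls was not compared gene by gene. Among the 10 genes, which carry no call, the sign of Klf1 in bone marrow and periosteum P2 against P3, of Tfrc in muscle and of Hba-a1 in bone marrow P2 against P3 turned under a scaling or without 1 library, as given above, and that of Hba-a2 between the P2 groups went from 0.56 to -0.27 after quantile normalization. Between the P2 groups the signs of Tfrc (0.32) and Hbb-bt (0.29) also turned without replicate 1 of periosteum P2. With groups fitted alone, calls numbered 41 in bone marrow P2 against P3 (24 with all groups), 16 in periosteum P2 against P1 (50), 0 in periosteum P3 against P1 (28), 0 in periosteum P2 against P3 (41), 0 between the P2 groups (3) and 1 for the difference between tissues (0), which was also 1 with the same total without globins; fewer libraries then set the spread. Leaving out 1 library gave 50 to 54 in bone marrow P2 against P1, 18 to 36 in P3 against P1, 16 to 29 in P2 against P3, 48 to 52, 25 to 30 and 33 to 44 in the same comparisons of periosteum, 17 to 24 in muscle, 1 to 5 between the P2 groups and 0 to 1 for the difference between tissues. The alpha to beta difference was -0.26 with Hba-a1 and Hbb-bs only, and -0.195 to -0.137 without 1 library. With a replicate block the counts were 52, 34, 25, 50, 27, 41, 21, 3 and 0, in the order of the comparisons above. Libraries of the same number did not deviate together (mean r 0.000242 over 36 pairs of groups, -0.0592 to 0.0502), so the numbers were not taken as pairs. The depth in reads is unknown, so a value of 0 is only a listed 0.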
